A study of Homo sapiens with 5 samples.

Results

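CLSTN2, KCTD8 and NELL1 are 3 human genes that were counted at higher levels in brain organoids grafted into the hippocampus (HIP) than in organoids grafted into the prefrontal cortex (PFC) of the mouse. They were chosen by name from 36601 genes listed for the grafted libraries and from 33538 listed for the organoids before grafting. The choice was made with the difference between graft sites known, so every HIP and PFC value of these genes is a description and carries no test. CLSTN2 stood far higher in HIP than in PFC at 2 months and much less so at 4 months, KCTD8 kept about the same ratio at both stages, and NELL1 lay between them.

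The cells came from human brain organoids made from H9, an established human embryonic stem cell line, in its AAVS-ChR2-EYFP derivative, which carries a channelrhodopsin fused to a yellow fluorescent protein. Organoids at day 42 of culture were either sequenced before grafting (D0) or placed in the brains of immunodeficient SCID (SCID-Beige) mice that were 6 to 8 weeks old. Fluorescent tissue was dissected from HIP or PFC at 2 or 4 months post transplantation (MPT), which gave HIP_2MPT, PFC_2MPT, HIP_4MPT and PFC_4MPT. Each of the 5 conditions was 1 single-cell library with the Chromium 3′ chemistry, all groups were from 1 cell line of the WT genotype label, and the number of host brains behind each grafted library was not stated. D0 differed from the grafts in the dissociation enzyme (TrypLE in place of Trypsin-EDTA), in the Cell Ranger release and in the gene annotation, which cannot be told apart from an effect of grafting.

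As background, CLSTN2 encodes calsyntenin-2, a cadherin-family membrane protein of the postsynaptic side that belongs with calsyntenin-1 and calsyntenin-3, proteins known for synapse formation and for binding kinesin light chains in vesicle transport. KCTD8 encodes a cytosolic auxiliary subunit of the GABA-B receptor. Together with KCTD12 and KCTD16, it binds the GABBR2 subunit and shapes the kinetics of the receptor's G-protein signalling, which opens inwardly rectifying potassium channels and inhibits calcium channels. NELL1 encodes a secreted glycoprotein with epidermal growth factor-like repeats, best known in bone formation, and its close relative NELL2 is a neuronal ligand of the ROBO3 guidance receptor.

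All 3 are long genes. In GENCODE v44 on GRCh38, CLSTN2 (ENSG00000158258) spans chr3:139935185-140577397 on the plus strand, 642 kb. KCTD8 (ENSG00000183783) spans chr4:44173903-44448809 on the minus strand, 275 kb. NELL1 (ENSG00000165973) spans chr11:20669551-21575686 on the plus strand, 906 kb. RefSeq promoter sequence was matched for 2 members, CLSTN2 and KCTD8. Both are shown because each of these stretches holds the letters TGACGTCA, the cAMP response element consensus, which reads the same on both strands. The sequences below are the 250 bases directly upstream of the RefSeq start on GRCh38.p14, from 5′ to 3′ on the strand of the gene, with the element in capitals; they lie at chr3:139934935-139935184 for CLSTN2 and at chr4:44448810-44449059 for KCTD8.
CLSTN2: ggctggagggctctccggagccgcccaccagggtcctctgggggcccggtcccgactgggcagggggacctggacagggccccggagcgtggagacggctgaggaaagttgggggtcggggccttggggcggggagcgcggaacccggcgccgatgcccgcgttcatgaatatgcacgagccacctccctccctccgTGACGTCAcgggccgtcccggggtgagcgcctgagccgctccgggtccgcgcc
KCTD8: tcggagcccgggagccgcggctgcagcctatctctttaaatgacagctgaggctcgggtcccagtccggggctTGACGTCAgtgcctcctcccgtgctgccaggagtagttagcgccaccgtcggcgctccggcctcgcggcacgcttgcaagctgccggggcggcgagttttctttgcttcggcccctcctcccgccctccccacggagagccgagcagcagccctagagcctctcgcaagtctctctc
The element begins 53 bases upstream of the start in CLSTN2 and 177 bases upstream in KCTD8. It occurred in 578 of 35116 promoters of that length, 1.65%, and its presence is a match of letters, not a measured site. G and C made up 74.8% of the CLSTN2 stretch and 67.6% of the KCTD8 stretch.

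After filtering, 34390 human cells remained, between 4885 and 8363 in a library. D0 was the deepest library, with a median of 9847 unique molecular identifiers (UMIs, each standing for 1 captured transcript) per cell, and HIP_2MPT was the shallowest, with 1253. The other grafts had medians of 1840 to 2759. The median mitochondrial share was 7.31% in PFC_4MPT and 2.35% to 3.77% in the rest. Between 6 and 20 cell barcodes were shared by any pair of libraries. Levels are given as UMIs of the gene per 1000000 UMIs of the cells (CPM), with an exact 95% Poisson interval that covers counting error only, since no condition had a second library.

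CLSTN2 was found mainly in the hippocampal graft at 2 months. Its level was 5.24 CPM in D0 (interval 4.66 to 5.88, 293 UMIs), 189.9 CPM in HIP_2MPT (181.9 to 198.1, 2125 UMIs), 11.4 CPM in PFC_2MPT (9.79 to 13.3, 173 UMIs), 17.1 CPM in HIP_4MPT (15.4 to 19.0, 368 UMIs) and 8.48 CPM in PFC_4MPT (7.15 to 9.99, 143 UMIs). HIP_2MPT thus lay apart from all other libraries, and the only neighbours in this order whose intervals overlapped were PFC_2MPT and PFC_4MPT. The HIP level was 16.6 times the PFC level at 2MPT (95% interval 14.2 to 19.5, exact conditional binomial) and 2.02 times at 4MPT (1.66 to 2.47). Within HIP the level at 4MPT was 0.0903 of that at 2MPT, and within PFC it was 0.742.

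KCTD8 followed the graft site at both stages. It stood at 7.26 CPM in D0 (6.57 to 8.01, 406 UMIs), 25.6 CPM in HIP_2MPT (22.7 to 28.7, 286 UMIs), 5.88 CPM in PFC_2MPT (4.72 to 7.24, 89 UMIs), 28.1 CPM in HIP_4MPT (25.9 to 30.5, 604 UMIs) and 6.23 CPM in PFC_4MPT (5.09 to 7.54, 105 UMIs). The 2 HIP libraries overlapped each other and lay above the other 3, among which D0 overlapped PFC_4MPT and PFC_4MPT overlapped PFC_2MPT. HIP held 4.35 times the PFC level at 2MPT (3.41 to 5.58) and 4.52 times at 4MPT (3.67 to 5.62). Between stages the ratio of 4MPT to 2MPT was 1.10 in HIP (0.955 to 1.27) and 1.06 in PFC (0.791 to 1.42), and both intervals included 1.

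NELL1 was almost not counted before grafting and reached its highest level in HIP_2MPT. It measured 1.04 CPM in D0 (0.788 to 1.34, 58 UMIs), 71.0 CPM in HIP_2MPT (66.2 to 76.1, 795 UMIs), 9.58 CPM in PFC_2MPT (8.08 to 11.3, 145 UMIs), 24.5 CPM in HIP_4MPT (22.4 to 26.7, 525 UMIs) and 10.1 CPM in PFC_4MPT (8.68 to 11.8, 171 UMIs). The PFC libraries overlapped each other, both HIP libraries lay above them, and D0 lay below all grafts. HIP exceeded PFC by 7.41 times at 2MPT (6.20 to 8.91) and by 2.41 times at 4MPT (2.03 to 2.88). In HIP the 4MPT level was 0.344 of the 2MPT level, and in PFC the ratio was 1.06 (0.843 to 1.33).

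**Figure D1:**
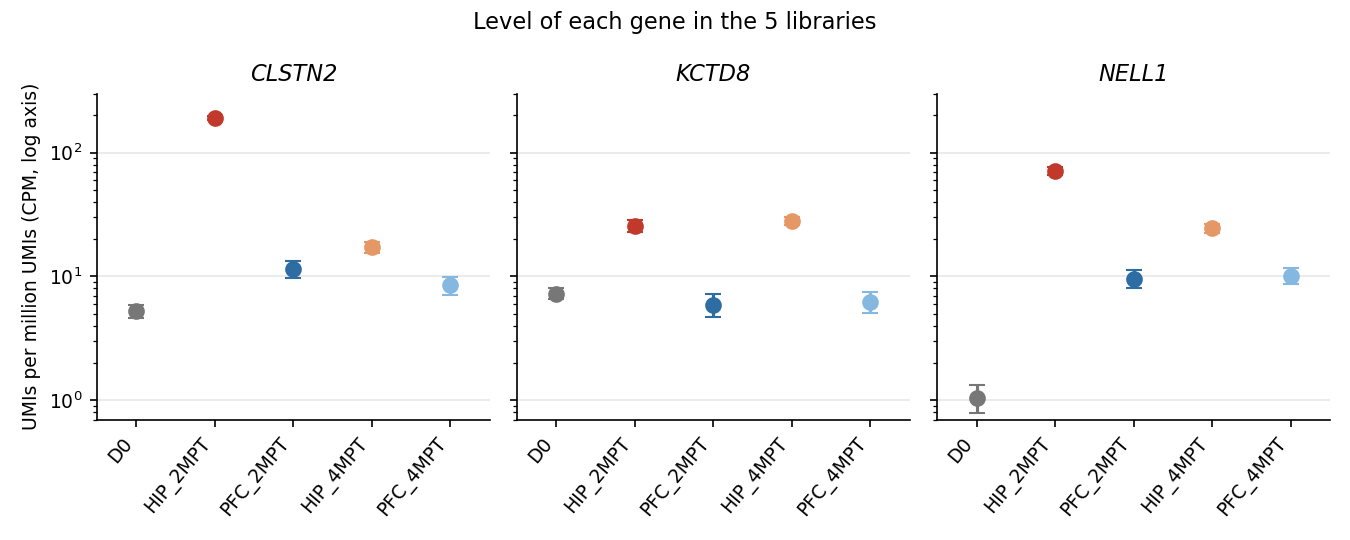
Level of each gene (CPM, log axis) in each of the 5 libraries, with points for the libraries and bars for exact 95% Poisson intervals. CLSTN2 peaks at 189.9 CPM in HIP_2MPT, KCTD8 is at 25.6 and 28.1 CPM in the HIP libraries, and NELL1 is at 1.04 CPM in D0 and 71.0 CPM in HIP_2MPT.

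Divided between stages, the HIP to PFC ratio at 2MPT was 8.21 times that at 4MPT for CLSTN2, 0.961 times for KCTD8 and 3.07 times for NELL1. Among 12760 genes with at least 100 UMIs over both 2MPT libraries, 2.46% were at least 2-fold higher in HIP and 0.329% at least 4-fold. All 3 members were past 4-fold there, with CLSTN2 at rank 3, NELL1 at rank 14 and KCTD8 at rank 34 by ratio. At 4MPT, 3.72% of 13971 genes were at least 2-fold higher in HIP and 0.179% at least 4-fold; KCTD8 was past 4-fold at rank 14, whereas NELL1 and CLSTN2 passed 2-fold at ranks 236 and 495. These counts restate the contrast on which the genes were chosen. A fit of site over both stages by edgeR called 0.0165% of 18127 genes higher in HIP, and these 3 genes were the members themselves. That share is therefore no background for them. The fit uses the contrast on which the members were chosen, so nothing is read from it about them.

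The length of a gene moved with the difference between sites at 4MPT. Genes spanning more than 250 kb, a bin chosen after the data were seen and one that holds all 3 members, had a median log2 ratio of HIP over PFC of -0.10 at 2MPT (953 genes) and 0.52 at 4MPT (1063 genes). In that bin 5.67% of genes were at least 2-fold higher in HIP at 2MPT and 15.8% at 4MPT. Genes under 100 kb had 2.19% and 2.10%, with median log2 ratios of 0.02 and -0.01. The log2 ratios of the members at 4MPT were 1.02 for CLSTN2, 2.18 for KCTD8 and 1.27 for NELL1, beside the bin median of 0.52. These ratios are not adjusted for gene length. The part of gene length in these values was not tested.

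**Figure D2:**
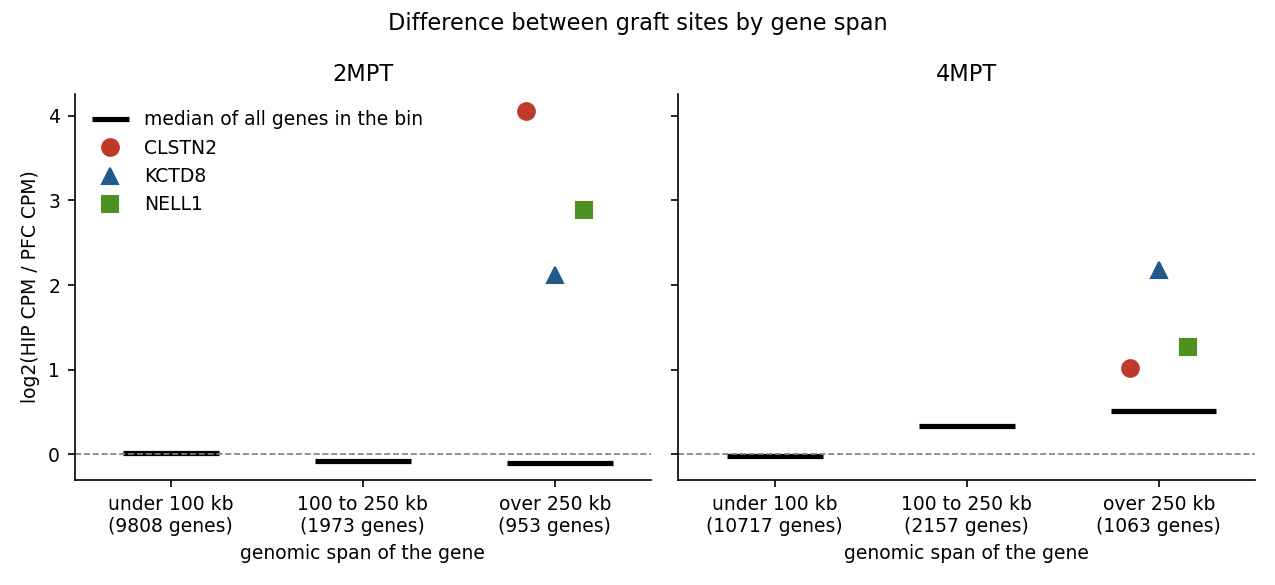
Difference between graft sites (log2 of HIP CPM over PFC CPM) at 2MPT and 4MPT for genes in 3 bins of genomic span, with black lines for the median of all genes in a bin and symbols for the 3 members, all over 250 kb. The median of the long genes lies at -0.10 at 2MPT and at 0.52 at 4MPT, and the members lie above it at both stages.

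To see which cells held these transcripts, the cells were clustered without the 3 members and clusters were named from marker lists. Of 18 clusters, 14 were named in 7 classes and 4 stayed unnamed. The unnamed clusters were led by OLIG1 and EGFR, by MTRNR2L copies, by heat shock genes, and by a mix of inhibitory neuron and cycling genes. The cluster led by OLIG1 and EGFR carried OLIG1 at 1660 CPM, OLIG2 at 282 CPM and EGFR at 634 CPM but SOX10, an oligodendrocyte lineage factor, at 1.04 CPM, where the oligodendrocyte-lineage-like cluster had 198 CPM.

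In HIP_2MPT CLSTN2 lay mostly in neuron-like cells, marked by STMN2 and NEUROD6. They held 87.7% of its UMIs there and 70.3% of all UMIs. Their CLSTN2 level was 236.9 CPM in HIP_2MPT and 16.6 CPM in PFC_2MPT. After each cell was thinned to 1000 UMIs, 18.3% of HIP_2MPT neuron-like cells had a CLSTN2 UMI (17.2% to 19.4%, 869 of 4760 cells) and 1.05% of PFC_2MPT neuron-like cells (0.737% to 1.45%, 36 of 3428), with 20.8% and 2.47% before thinning at median depths of 1258 and 2226 UMIs. Intermediate-progenitor-like cells stood at 100.8 CPM in HIP_2MPT and 8.23 CPM in PFC_2MPT, progenitor-like cells at 39.6 and 2.46 CPM, and astrocyte-like cells at 60.3 and 1.86 CPM.

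The CLSTN2 difference at 2MPT was present in every class that could be compared. All 6 classes or unnamed clusters with at least 20 cells in both libraries were higher in HIP with an interval above 1. Finite ratios ran from 12.3 to 32.4, and all 12 single clusters were higher too. Some rested on few UMIs, such as 27 and 2 in astrocyte-like cells. Free human RNA in HIP_2MPT, gauged below in host barcodes, held CLSTN2 at 154.1 CPM. Its part in these class ratios was not tested, so they do not show that each class made the transcript. The neuron-like ratio was 14.2 (11.97 to 17.04). Among neuron-like cells, cluster 0 was the largest cluster in HIP_2MPT and PFC_4MPT, and cluster 1 the largest in PFC_2MPT and HIP_4MPT. The CLSTN2 level was 218.1 CPM in HIP_2MPT and 16.4 CPM in PFC_2MPT in cluster 0, and 343.1 and 12.6 CPM in cluster 1, so both clusters showed the difference. With class shares set equal in both libraries, the ratio was 14.2 at 2MPT and 2.26 at 4MPT.

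In HIP_4MPT the same gene lay mostly in other cells. Neuron-like cells of HIP_4MPT held 12.5% of the CLSTN2 UMIs, at 5.26 CPM (46 UMIs), and those of PFC_4MPT stood at 5.996 CPM (41 UMIs). Their ratio was 0.877 (0.563 to 1.37), so no difference between sites was detectable in these cells at this depth. The cluster led by OLIG1 and EGFR held 52.2% of the CLSTN2 UMIs of HIP_4MPT and 16.7% of all UMIs. It stood at 53.6 CPM in HIP_4MPT (192 UMIs) and 12.2 CPM in PFC_4MPT (23 UMIs), a ratio of 4.402 (2.85 to 7.11). In PFC_4MPT neuron-like cells held 28.7% of the CLSTN2 UMIs and 40.5% of all UMIs. That cluster held 16.1% of the CLSTN2 UMIs of PFC_4MPT and 11.2% of all UMIs, so its level was the higher there too. The cluster made up 14.3% of HIP_4MPT cells and 8.38% of PFC_4MPT cells. Oligodendrocyte-lineage-like cells, few in number, stood at 65.8 CPM in HIP_4MPT (16 UMIs) and 54.5 CPM in PFC_4MPT (15 UMIs), with an interval of the ratio that included 1 (0.559 to 2.62). Drawn instead by at least 1 UMI of OLIG1 or OLIG2, whatever their cluster, cells at 4MPT had a CLSTN2 ratio of 2.56 (1.84 to 3.62), and cells without either had 1.44 (1.11 to 1.86).

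**Figure D3:**
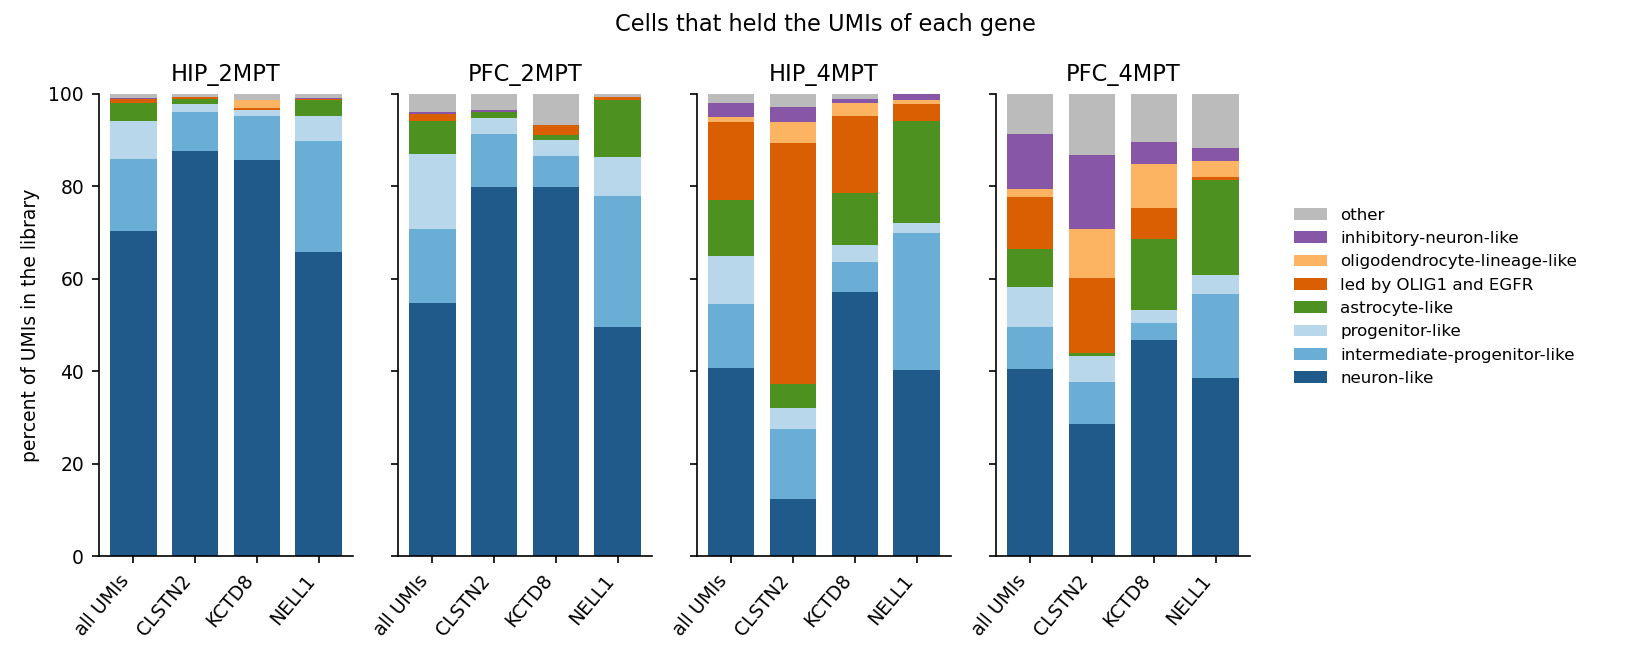
Share of UMIs (percent) held by each cell class in the 4 graft libraries, for all UMIs and for the UMIs of each gene, as stacked bars that add to 100. Neuron-like cells hold 87.7% of CLSTN2 UMIs in HIP_2MPT and 12.5% in HIP_4MPT, where the cluster led by OLIG1 and EGFR holds 52.2%.

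KCTD8 was higher in HIP within neuron-like cells at both stages. Its level there was 31.1 CPM in HIP_2MPT (245 UMIs), 8.56 CPM in PFC_2MPT (71 UMIs), 39.4 CPM in HIP_4MPT (345 UMIs) and 7.17 CPM in PFC_4MPT (49 UMIs). Both HIP libraries lay above both PFC libraries, with ratios of 3.64 at 2MPT (2.78 to 4.81) and 5.50 at 4MPT (4.07 to 7.58). After thinning, 2.90% and 3.32% of neuron-like cells in HIP_2MPT and HIP_4MPT had a KCTD8 UMI, against 0.788% and 0.751% in PFC_2MPT and PFC_4MPT. The cluster led by OLIG1 and EGFR stood at 27.9 CPM in HIP_4MPT (100 UMIs) and 3.70 CPM in PFC_4MPT (7 UMIs), a ratio of 7.53 (3.52 to 19.2). Astrocyte-like cells of HIP_2MPT had 0 KCTD8 UMIs in 331 cells, which allows a share of cells with a UMI of up to 0.906%. Those of HIP_4MPT stood at 26.2 CPM (68 UMIs in 597 cells) and those of PFC_4MPT at 11.3 CPM (16 UMIs). Among classes and unnamed clusters with at least 50 cells, oligodendrocyte-lineage-like cells had the highest KCTD8 level in HIP_4MPT, 74.0 CPM (18 UMIs), and in PFC_4MPT, 36.3 CPM (10 UMIs).

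NELL1 was spread over neuron-like, intermediate-progenitor-like and astrocyte-like cells. Among classes and unnamed clusters with at least 50 cells, intermediate-progenitor-like cells, marked by EOMES, PPP1R17 and PENK, had the highest NELL1 level in HIP_2MPT, PFC_2MPT and HIP_4MPT, and astrocyte-like cells had it in PFC_4MPT; the leading levels in PFC_2MPT and PFC_4MPT were nearly tied with others. In the intermediate-progenitor-like class the levels were 109.4 CPM in HIP_2MPT (191 UMIs), 16.9 CPM in PFC_2MPT (41 UMIs), 52.4 CPM in HIP_4MPT (155 UMIs) and 20.3 CPM in PFC_4MPT (31 UMIs). Astrocyte-like cells stood at 58.1, 16.8, 44.7 and 24.8 CPM in the same order of libraries, next to 24.6 CPM in the cluster led by MTRNR2L copies in PFC_4MPT, and neuron-like cells at 66.5, 8.68, 24.2 and 9.65 CPM. In intermediate-progenitor-like cells HIP was above PFC at both stages, by 6.49 times (4.61 to 9.33) and 2.59 times (1.751 to 3.94). Neuron-like cells had ratios of 7.66 (5.98 to 9.94) and 2.51 (1.90 to 3.36), and astrocyte-like cells 3.47 (1.83 to 6.71) and 1.80 (1.23 to 2.71). In inhibitory-neuron-like cells NELL1 was low, with 6 UMIs in HIP_4MPT and 5 in PFC_4MPT, and in the cluster led by OLIG1 and EGFR it was at 5.30 CPM in HIP_4MPT, where that cluster held the largest share of CLSTN2.

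Counted over classes and unnamed clusters, NELL1 was higher in HIP in 6 of 6 at 2MPT, with 5 intervals above 1, and in 7 of 10 at 4MPT, with 4. KCTD8 was higher in 5 of 6 at 2MPT, with 2 intervals above 1, and in 9 of 10 at 4MPT, with 6. Of these 10, the mixed inhibitory and cycling cluster had 0 UMIs of KCTD8 and of NELL1 in both libraries and gave no ratio. CLSTN2 was higher in 9 of 10 at 4MPT, with 4 intervals above 1. No interval of the 3 genes lay below 1 at either stage. The cells of 1 library share their source, so these counts describe the libraries and are not replicates of a graft site. They also share the free RNA of the library, whose part in these counts was not tested.

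**Figure D4:**
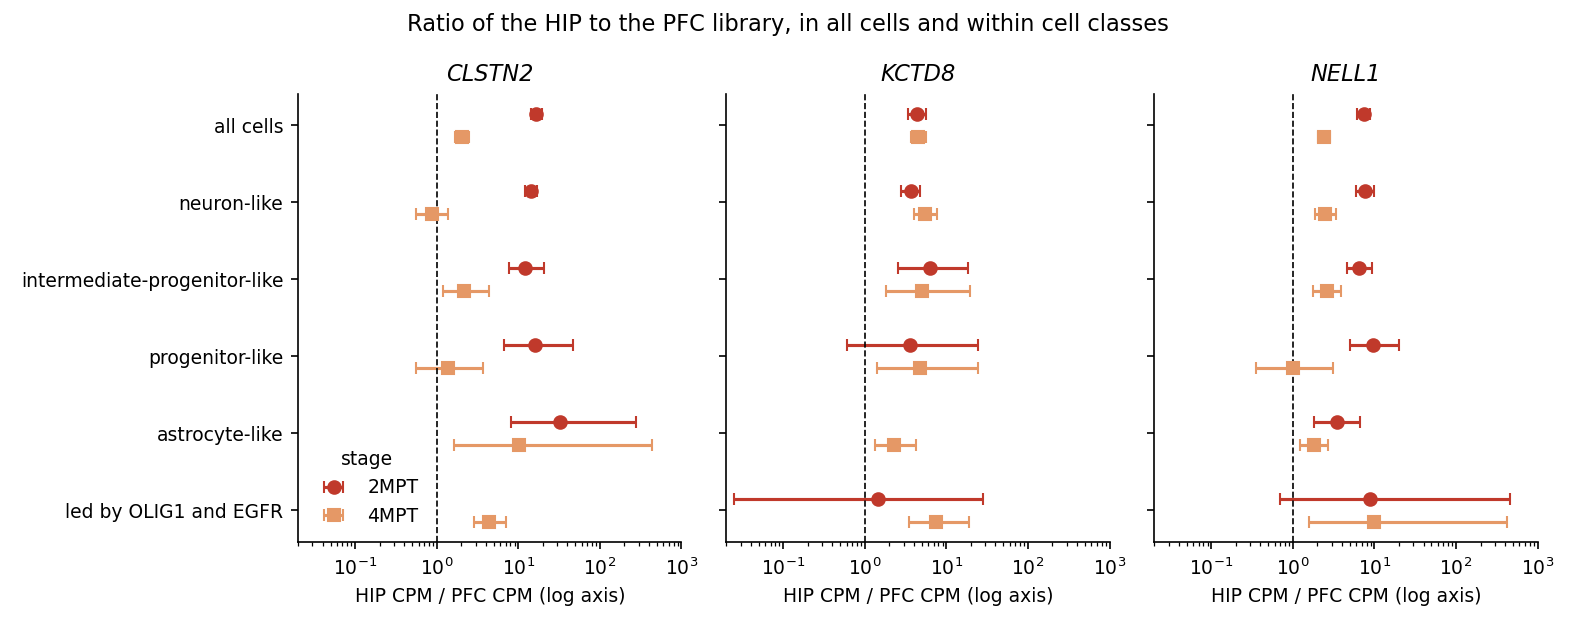
Ratio of HIP CPM to PFC CPM (log axis) for each gene in all cells and in 5 classes, with circles for 2MPT, squares for 4MPT and bars for exact 95% intervals; classes with 0 UMIs in a library are not drawn. The CLSTN2 ratio in neuron-like cells is 14.2 at 2MPT and 0.877 at 4MPT, while that of KCTD8 is 3.64 and 5.50.

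Before grafting, most CLSTN2 and KCTD8 UMIs lay in choroid-plexus-like cells. Choroid-plexus-like cells of D0, marked by TTR and FOLR1, held 57.0% of its CLSTN2 UMIs (21.9 CPM, 18.7 to 25.5) and 56.2% of its KCTD8 UMIs (29.9 CPM, 26.1 to 34.0), with 13.7% of all D0 UMIs. Neuron-like cells of D0 stood at 4.43 CPM for CLSTN2 and 7.98 CPM for KCTD8, and progenitor-like cells at 1.40 and 0.887 CPM. NELL1 was not counted in 598 choroid-plexus-like cells, which allows a share of cells with a UMI of up to 0.502%, and its 58 UMIs in D0 were mostly in neuron-like cells (40 UMIs, 2.53 CPM). The grafts held 8 choroid-plexus-like cells, too few to give a level in that class. Most D0 neuron-like cells belonged to a cluster led by NTS, SST and CALB2 that was nearly absent from the grafts, so neuron-like levels were not compared between D0 and grafts.

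Free RNA in the droplets was gauged in mouse barcodes, which should hold no human transcript. In HIP_2MPT, 2.51% of 916 host barcodes had a CLSTN2 UMI (1.598% to 3.74%), at 162.9 human UMIs per barcode and 154.1 CPM of those human UMIs. The share in human cells of that library was 17.4% before thinning, at a median of 1253 UMIs, and 6.95% in its astrocyte-like cells and 5.22% in its progenitor-like cells at medians of 1208 and 1546 UMIs. The host barcodes therefore carried human RNA with nearly the CLSTN2 level of the library as a whole, and the part of free RNA in the 39.6 to 60.3 CPM of progenitor-like and astrocyte-like cells was not tested. In PFC_2MPT, 0 of 772 host barcodes had a CLSTN2 UMI, which allows a share of up to 0.389%. KCTD8 stood at 20.1 CPM of the human UMIs in HIP_2MPT host barcodes (3 UMIs) and 25.6 CPM in human cells, and NELL1 at 67.0 CPM (10 UMIs) and 71.0 CPM. In PFC_4MPT, NELL1 was at 9.23 CPM in host barcodes (3 UMIs) and 10.1 CPM in human cells. Host barcodes held 63.5 to 270.5 human UMIs each, too few for their shares with a UMI to be set against those of human cells, and the part of free RNA in the levels of these genes was not tested.

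The mouse counterparts of the genes were scarce in the host cells. Clstn2 had 1 to 6 UMIs, Kctd8 2 to 9 UMIs and Nell1 0 to 5 UMIs per graft library, at most 2.33 CPM of mouse UMIs. The recovered host barcodes were rich in microglia markers (5455 to 9378 CPM summed over 5 genes) and poor in neuron markers (3.11 to 37.5 CPM over 4 genes), so levels in host neurons of HIP or PFC could not be read from them. CLSTN2-AS1, an antisense gene of the CLSTN2 locus, had 0 UMIs in all 5 libraries.

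Few cells were seen with 2 of the members, and each member alone was also seen in a minority of cells. Among 4760 thinned neuron-like cells of HIP_2MPT, 869 had CLSTN2, 265 had NELL1 and 138 had KCTD8. Both CLSTN2 and NELL1 were seen in 82 of them, where 48.4 would be given by the product of their shares. CLSTN2 and KCTD8 met in 33 cells against 25.2, and KCTD8 and NELL1 in 10 against 7.68. In the other 3 grafts no pair met in more than 2 neuron-like cells, where the product of shares gave 0.128 to 2.22 cells.

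Change between stages was tested with the HIP and PFC libraries as the 2 samples of a stage. It is another contrast than the one on which the genes were chosen, but it rests on the same libraries, the high HIP_2MPT values among them, so these tests are not independent of the choice. Over all cells, 2.4% of 19074 genes were called between 4MPT and 2MPT by the quasi-likelihood test of edgeR, adjusted by Benjamini and Hochberg's method, 1.85% as higher and 0.55% as lower at 4MPT, and none of the 3 members was among them. The log2 difference of 4MPT over 2MPT was -2.90 for CLSTN2 (SE 0.88, adjusted p = 0.142), 0.19 for KCTD8 (SE 0.66, adjusted p = 0.944) and -1.15 for NELL1 (SE 0.67, adjusted p = 0.514). CLSTN2 was lower at 4MPT in both sites, but 1 library set the size of the difference, which was 0.19 without HIP_2MPT. With graft site as a block it was -1.96 (adjusted p = 0.00406 by edgeR), and without PFC_2MPT it was -3.82. The block fit assumes the same stage change in both sites. The CLSTN2 log2 change was -3.47 in HIP and -0.43 in PFC, so -1.96 is the change of neither site. The signs of the others also rested on 1 library: NELL1 gave 0.88 without HIP_2MPT and -1.97 without PFC_2MPT, and KCTD8 gave 1.56 without HIP_2MPT and -1.21 without HIP_4MPT. A fit without 1 graft library leaves that stage with 1 library from 1 site. Stage and site cannot be told apart in such a fit, so only the size of the difference is given.

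In neuron-like cells alone, the CLSTN2 level was lower at 4MPT than at 2MPT. Its level there was 236.9 CPM in HIP_2MPT and 5.26 CPM in HIP_4MPT, and in the other site 16.6 CPM in PFC_2MPT and 5.996 CPM in PFC_4MPT, so both 4MPT libraries lay below both 2MPT libraries. The log2 difference was -4.42 (SE 0.88, adjusted p = 0.0382 by edgeR), in a comparison that called 0.943% of 15697 genes, 0.605% as higher and 0.338% as lower at 4MPT. This fit, too, rests on the high HIP_2MPT value of CLSTN2, so it is not independent of the choice of genes. Without HIP_2MPT the log2 difference was -1.52, and with DESeq2 it was -4.41 but not past the threshold (adjusted p = 0.119). KCTD8 (0.29, SE 0.62, adjusted p = 0.912) and NELL1 (-1.08, SE 0.65, adjusted p = 0.543) were not called in neuron-like cells by edgeR. KCTD8 gave 1.47 without HIP_2MPT, 1.01 without PFC_4MPT and -1.34 without HIP_4MPT. NELL1 gave -1.90 without PFC_2MPT, -1.83 without HIP_4MPT and 1.00 without HIP_2MPT. In these fits, too, stage and site cannot be told apart.

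Against D0, edgeR called NELL1 higher at both graft stages and CLSTN2 higher at 2MPT, where the CLSTN2 call depended on the fit. These fits rest on the same libraries, the high HIP_2MPT values among them, so they are not independent of the choice of genes. At 2MPT 48.3% of 19074 genes were called against D0, 27.2% as higher and 21.1% as lower. By edgeR the log2 difference of 2MPT over D0 was 4.89 for NELL1 (SE 1.08, adjusted p = 0.00398), 3.88 for CLSTN2 (SE 1.23, adjusted p = 0.0237) and 0.73 for KCTD8 (SE 0.82, adjusted p = 0.486). The CLSTN2 call was lost with DESeq2 (3.89, adjusted p = 0.0819). The CLSTN2 difference by edgeR was 0.79 without HIP_2MPT and 3.95 without PFC_4MPT. At 4MPT, where 50.1% of genes were called 28.7% as higher and 21.4% as lower, the difference was 3.74 for NELL1 (SE 1.02, adjusted p = 0.0115 by edgeR), 0.98 for CLSTN2 (SE 1.07, adjusted p = 0.466) and 0.92 for KCTD8 (SE 0.82, adjusted p = 0.374). Without PFC_2MPT, KCTD8 was at 1.44 at 2MPT and 0.92 at 4MPT, and CLSTN2 was at 0.98 at 4MPT. Without HIP_2MPT the 4MPT values were 0.93 for KCTD8 and 0.99 for CLSTN2. Without HIP_2MPT KCTD8 was at -0.63 at 2MPT, and without HIP_4MPT at -0.46 at 4MPT. D0 had 1 library and was assumed to vary like the grafts, and a stage left with 1 library was assumed so too. These fits sum all cells of a library, and the cell classes of D0 and the grafts differed. Choroid-plexus-like cells held 57.0% of CLSTN2 and 56.2% of KCTD8 UMIs in D0, and the grafts had 8 such cells. The part of class shares in these differences was not tested.

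The relatives and partners of CLSTN2 differed less between sites at 2MPT than CLSTN2 did, which follows from the choice of genes. CLSTN2 was chosen with this difference known and lay at rank 3 of 12760 genes by it. The gap between their ratios and that of CLSTN2 was not tested. Of 11 calsyntenins and synaptic partners, CLSTN2 was the single gene at least 2-fold higher in HIP at 2MPT, none was 2-fold lower, and the median log2 ratio was 0.30 against -0.0044 over all genes. CLSTN1 stood at 48.8 CPM in HIP_2MPT and 39.5 CPM in PFC_2MPT, and CLSTN3 at 31.5 and 19.0 CPM. The ratios of CLSTN1 (1.23), CLSTN3 (1.66), KLC1 (1.57), APBA1 (1.26) and APBA2 (1.31) had intervals above 1. KLC1, a kinesin light chain, was at 179.5 and 114.6 CPM. At 4MPT the median was 0.22 against 0.08 over all genes, and NRXN3, a neurexin, was lower in HIP (134.3 CPM) than in PFC (350.6 CPM). Between stages NRXN3 was the 1 gene of the list called by edgeR over all cells, with a log2 difference of 3.24 (SE 0.42, adjusted p = 0.00306). Of all genes, 1.85% were called higher at 4MPT. In neuron-like cells alone NRXN3 was not called by edgeR (1.10, SE 0.55, adjusted p = 0.438). NRXN3 also led the inhibitory-neuron-like cluster, which held 20 cells from HIP and 19 from PFC at 2MPT. At 4MPT the same cluster held 244 cells from HIP and 1081 from PFC. The part of class shares in the NRXN3 differences between stages and sites was not tested.

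Within the GABA-B pathway, 13 of 15 genes had enough UMIs to compare sites at 2MPT. Over all genes with enough UMIs, 2.46% at 2MPT and 3.72% at 4MPT were at least 2-fold higher in HIP. Past 2-fold and higher in HIP were KCTD8, KCTD16, another auxiliary subunit, at 107.6 CPM in HIP_2MPT and 48.1 CPM in PFC_2MPT, and KCNJ6, a potassium channel subunit opened by the receptor, at 72.9 and 24.8 CPM. KCNJ3, its channel partner, was lower in HIP (4.56 CPM) than in PFC (10.6 CPM). The receptor subunits differed less, with GABBR1 at 69.6 and 47.8 CPM and GABBR2 at 11.9 and 8.46 CPM, and the median log2 ratio of the list was 0.39. At 4MPT KCNJ3 was higher in HIP, at 12.7 and 7.71 CPM, KCTD8 and GABBR2 (10.9 and 5.04 CPM) were past 2-fold, KCTD16 stood at 54.8 and 46.5 CPM and KCNJ6 at 13.5 and 10.8 CPM. In the stage comparison 2 genes were called lower at 4MPT by edgeR, KCNJ6 (log2 difference -1.94, SE 0.41, adjusted p = 0.0356) and the G-protein subunit GNAI1 (-1.22, SE 0.23, adjusted p = 0.0229). Of all genes, 0.55% were called lower there. Against D0, KCTD16 was higher at 2MPT (3.42, SE 0.48, adjusted p = 0.000251 by edgeR), as were KCNJ6, GNAI1 and the calcium channel gene CACNA1B, while GNB2 and GNAI2 were lower. These were 4 of 15 genes higher and 2 lower, beside 27.2% higher and 21.1% lower over all genes. Nothing is read from these calls about the pathway.

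Of 10 NELL proteins and binding partners, 7 had at least 100 UMIs at 2MPT, with a median log2 ratio of -0.28. NELL1, chosen with its site difference known, was the 1 gene among these 7 past 2-fold higher in HIP. ROBO3 was 1.77 times as high in HIP as in PFC (1.41 to 2.22). Under that minimum of UMIs, CNTNAP4 was at 4.38 CPM in HIP_2MPT and 1.12 CPM in PFC_2MPT and PRKCD at 4.56 and 1.59 CPM, also higher in HIP; both are named after their values were seen. NELL2 was at 214.9 CPM in HIP_2MPT and 261.6 CPM in PFC_2MPT, and the guidance receptor ROBO2 at 602.7 and 924.2 CPM. At 4MPT 8 genes could be compared, with NELL1 past 2-fold higher and CNTNAP4 past 2-fold lower, opposite to its direction at 2MPT. CNTNAP4 did not exceed 5.57 CPM in any library. No gene of the list was called between 4MPT and 2MPT by edgeR. Against D0, NELL1, NELL2, ROBO1 and ROBO2 were called higher and PRKCB lower at both graft stages. At 2MPT the list had 4 of 10 genes higher and 2 lower, beside 27.2% and 21.1% of all genes. At 4MPT it had 4 higher and 1 lower, beside 28.7% and 21.4%.

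Genes of hippocampal and cortical identity gave no uniform picture beside the members. Of 15 transcription factors and markers, 13 could be compared at 2MPT. EMX2, a dorsal patterning factor, was higher in HIP (912.2 CPM) than in PFC (267.6 CPM), as was the deep-layer factor FEZF2 (46.8 and 21.3 CPM), and ETV1 was lower (6.79 and 22.4 CPM). The dentate granule cell factor PROX1 stood at 6.34 and 6.54 CPM. At 4MPT no gene of this list was past 2-fold in either direction, with EMX2 at 247.6 and 243.1 CPM. By edgeR, PROX1 (log2 difference 1.40, adjusted p = 0.0386) and ETV1 (2.44, adjusted p = 0.0228) were higher and FEZF2 (-1.85, adjusted p = 0.0270) was lower at 4MPT than at 2MPT. Of all genes, 1.85% were called higher and 0.55% lower.

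Genes whose pattern over cells most resembled each member were sought across 54 sums of a graft library and a cluster with at least 50 cells, which share libraries and depth. Among 10107 genes, the highest Pearson correlations of log2(CPM + 1) with CLSTN2 were those of VASH1 (0.742), PLBD2 (0.731), MT-ATP8 (0.722), DDX5 (0.721) and AGAP1 (0.696). The level of VASH1 was 78.8 CPM in HIP_2MPT and 27.8 to 34.7 CPM in the other grafts, and that of AGAP1 was 168.1 CPM and 59.2 to 67.0 CPM, so these genes were also highest in HIP_2MPT. With KCTD8 those reported were OPCML (0.692), KCNMB2 (0.688), NTM (0.682) and JAZF1 (0.676). With NELL1 they were TTYH2 (0.790), PIGS (0.751), PLXDC2 (0.725), PAG1 (0.715) and AP2B1 (0.710). PLXDC2 stood at 28.1 and 24.98 CPM in the HIP grafts of 2MPT and 4MPT and at 9.25 and 8.48 CPM in the PFC grafts. Among the members themselves the correlation was 0.534 for CLSTN2 and NELL1, 0.446 for KCTD8 and NELL1 and 0.389 for CLSTN2 and KCTD8. The named genes were picked for the highest values, so their higher correlations follow from that choice.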

How the data were processed

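RNA of 5 single-cell libraries was analysed: D0, HIP_2MPT, PFC_2MPT, HIP_4MPT and PFC_4MPT, each 1 library, so 1 sample per condition. The authors aligned reads with Cell Ranger (3.1.0 for D0 and 5.0.0 for the grafts per the file headers; the submitters' processing notes list Cell Ranger 3.1 and R 4.1.1) to the human reference GRCh38 and, for grafts, also to a human-mouse reference, and deposited raw UMI counts per gene and barcode. Whether intronic reads were counted was not given in the sources used here. Intervals and floors (3 counts) cover counting error only.

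Cells were kept with over 500 UMIs, over 500 genes, a log10 gene to log10 UMI ratio over 0.8, a mitochondrial share under 0.15 and, in grafts, a human share of UMIs over 0.8; barcodes with a human share under 0.2 were taken as host. Kept cells held between 11192237 and 55892222 UMIs per library. Scrublet marked 5 of 34390 cells and so had not worked; removal of the 6% with the highest scores was an alternative. Counts were normalised with sctransform 0.4.2 and integrated and clustered with Seurat 5.3.0 in R 4.3.3 (2500 variable genes without the members, 40 components, resolution 0.8). A cluster was named where the mean log2 fold of a marker list reached 0.4 and no list of another class exceeded 0.6 of it, limits set after the clusters were seen.

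UMI counts were summed per library. Stage was tested with edgeR 4.0.16 (filterByExpr, TMM, quasi-likelihood test, two-sided, Benjamini-Hochberg adjustment, threshold 0.05), after a check on simulated counts, and DESeq2 1.42.0 was an alternative. The SE given with edgeR is the absolute log2 difference divided by the square root of the F statistic, so it follows from the test. D0 lists genes of another annotation, so 32732 shared genes entered the fits with D0. The cells of a stage came from 2 sites and not from replicate cultures, and p-values measure the spread between these libraries. The members' levels were compared between sites with no test, and a fit of site over all genes gave counts of called genes only. Named genes were the 3 members, genes of 4 lists counted at 10 CPM or more in at least 1 library, and the 5 most correlated genes per member among those with 10 CPM over graft cells. CNTNAP4, PRKCD, KCTD12 and KCNJ9 lay under that level and are exceptions, named after their values were seen. The members and lists were chosen with earlier results of these data known. Results for some of these genes are not reported here.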

Additional observations from a re-analysis of the deposited data

How the results depend on the processing

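All HIP to PFC ratios of the members over all cells stayed above 1 in 60 recalculations, and 1 left its interval, the CLSTN2 ratio at 2MPT with equal class shares (14.2). These recalculations reuse the same libraries, and the members were chosen with this difference known. The count therefore shows only that the ratios depend little on these settings, and it is no check of a site difference. Without the clusters led by MTRNR2L copies and by heat shock genes, an alternative chosen after seeing the data, the ratios at 2MPT and 4MPT were 16.5 and 2.05 for CLSTN2, 4.46 and 4.72 for KCTD8, and 7.19 and 2.58 for NELL1. In neuron-like cells of an unintegrated clustering the ratio was 11.8 for CLSTN2 at 2MPT and 1.89 for NELL1 at 4MPT. Cells with an OLIG1 or OLIG2 UMI at 4MPT, also chosen after seeing the data, gave 2.56 for CLSTN2. Shares of neuron-like cells with a UMI before thinning, in HIP_2MPT, PFC_2MPT, HIP_4MPT and PFC_4MPT, were 20.8%, 2.47%, 1.08% and 0.978% for CLSTN2, 3.81%, 1.69%, 7.55% and 1.19% for KCTD8, and 7.01%, 1.66%, 4.22% and 1.61% for NELL1. Unintegrated, the thinned shares moved to 0.921% for CLSTN2, 4.10% for KCTD8 and 3.01% for NELL1 in HIP_4MPT, and to 1.46% for NELL1 in PFC_4MPT. With log2(CPM + 10), 3 of the 5 genes most like CLSTN2, 3 of those most like KCTD8 and 2 of those most like NELL1 were the same.

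Each condition had 1 library, so no replicate numbers pair the libraries. Stages can be paired within a site only by graft site as a block. Over the 4 grafts, the block fit called 733 genes between 4MPT and 2MPT against 457 without it, and 390 against 148 in neuron-like cells. CLSTN2 was at -1.96 and past the threshold over all cells. That fit assumes the same stage change in both sites, which the CLSTN2 levels did not show. Without the filter on low counts, the comparisons of 4MPT with 2MPT called 1347 genes over all cells and 229 in neuron-like cells. The log2 differences over all cells were -2.86 for CLSTN2 and -1.11 for NELL1, both past the threshold. The differences hardly changed, but the SE fell from 0.88 to 0.28 for CLSTN2 and from 0.67 to 0.28 for NELL1. CLSTN2 at 4MPT against D0 was at 0.95 without the filter, also past the threshold. All these fits rest on the libraries known when the genes were chosen, so they are not independent of that choice. DESeq2 called 264 genes in neuron-like cells, with CLSTN2 at -4.41, and gave 3.89 for CLSTN2 at 2MPT against D0, neither of them past the threshold. For site over both stages, 15 genes were called against 7 by DESeq2, 36 without the filter and 0 by edgeR without stage in the fit (149 at an unadjusted p under 0.05).

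Leaving out each graft library in turn gave 32 (without PFC_4MPT) to 1508 (without PFC_2MPT) genes called between 4MPT and 2MPT and 235 to 809 in neuron-like cells. The log2 differences of 4MPT over 2MPT ran from -3.82 to 0.19 for CLSTN2, -1.21 to 1.56 for KCTD8 and -1.97 to 0.88 for NELL1 over all cells, and from -5.32 to -1.52, -1.34 to 1.47 and -1.90 to 1.00 in neuron-like cells, so the direction of each but neuron-like CLSTN2 depended on 1 library. Against D0 they ran from 0.79 to 4.80 (CLSTN2), -0.63 to 1.44 (KCTD8) and 2.87 to 5.71 (NELL1) at 2MPT, and from 0.45 to 1.43, -0.46 to 1.67 and 3.04 to 4.27 at 4MPT. KCTD8 was also negative without PFC_2MPT, at -0.51 over all cells and -0.35 in neuron-like cells. The cause of these changes was not tested. Depth limits the statements on neuron-like CLSTN2 at 4MPT, which rest on 46 and 41 UMIs, and 1 library per condition means that a difference between sites cannot be told apart from one between libraries.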
